A study of Mus musculus with 16 samples.

Results

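The oligoadenylate synthetases are a gene family of the antiviral interferon response. Described here are the 6 mouse genes Oas1a, Oas1g, Oas2, Oas3, Oasl1 and Oasl2, chosen by symbol from the 53700 genes of the deposited count files, in which 12 symbols begin with Oas. RNA came from microglia, the resident macrophages of the brain, sorted from whole brains of Ercc1 knockout (KO) and control (WT) mice at 6 and 12 weeks of age. Ercc1 encodes a subunit of a DNA repair nuclease. The 4 groups were 6-week KO, 6-week WT, 12-week KO and 12-week WT, with 4 libraries each, all on a C57Bl6J/FVB cross. By their labels, the 6-week groups held 2 males and 2 females each, and the 12-week groups 3 males and 1 female each. The labels give the genotype only as ko or wt, without the allele. They state neither whether a library is 1 animal nor a batch, so p values measure the spread between these libraries. Live cells were sorted as CD11b high, CD45 intermediate and Ly6c negative.

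Cells transcribe oligoadenylate synthetase genes when type I interferon binds its receptor and activates the factor ISGF3, which contains Stat2 and Irf9. The enzymes bind double-stranded RNA and join ATP into short chains with 2'-5' linkages, called 2-5A. These chains act as a second messenger that restricts viral replication. Oas1a, Oas1g, Oas2 and Oas3 encode enzymes of this kind, with a growing number of synthetase units from Oas1 to Oas3. Oasl1 and Oasl2 encode related proteins with ubiquitin-like domains. In mice the Oasl1 protein lacks synthetase activity and represses translation of Irf7 mRNA, while Oasl2 retains the activity.

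All 6 genes lie on chromosome 5 in neighbouring pairs: Oasl2 beside Oasl1, Oas2 beside Oas3, and Oas1g beside Oas1a. RefSeq promoters (build GRCm38.p6) were at hand for 5 of the 6, all but Oas2. They were searched on both strands for GAAA, any 2 bases and GAAA again, the core of the interferon-stimulated response element that ISGF3 binds. The sequences below run 5' to 3' through the 120 bases up to the transcription start, with matches in capitals. Oas1a and Oas1g are shown for the letters that they share close to their starts, and Oas3 and Oasl2 for comparison. Oas1a (chr5:120907526-120907645, minus strand), Oas1g (chr5:120887614-120887733, minus), Oas3 (chr5:120777660-120777779, minus) and Oasl2 (chr5:114896814-114896933, plus) are shown.
Oas1a: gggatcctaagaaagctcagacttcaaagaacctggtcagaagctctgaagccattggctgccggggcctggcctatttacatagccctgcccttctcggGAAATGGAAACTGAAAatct
Oas1g: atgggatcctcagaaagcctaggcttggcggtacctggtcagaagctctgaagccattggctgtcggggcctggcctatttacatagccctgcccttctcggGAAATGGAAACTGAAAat
Oas3: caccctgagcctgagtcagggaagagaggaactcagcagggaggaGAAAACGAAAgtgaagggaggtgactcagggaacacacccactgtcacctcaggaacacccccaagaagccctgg
Oasl2: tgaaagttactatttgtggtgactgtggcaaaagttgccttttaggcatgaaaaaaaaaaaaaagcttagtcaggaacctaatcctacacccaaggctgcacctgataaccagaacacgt
In Oas1a and Oas1g the capitals hold 2 overlapping matches, with the same letters in both genes. They begin 20 and 14 bases before the start of Oas1a, and 18 and 12 bases before that of Oas1g. Oas3 has 1 match, which begins 75 bases before its start. Oasl2 has none in this window, nor has Oasl1. A match is a description of letters and not a measured binding site. Of 32851 promoter windows of the same 120 bases in the RefSeq table, 1.22% hold at least 1 match.

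Library totals lay between 7882182 and 22142972 counts, and levels below are CPM, counts relative to scaled library sizes. Ercc1 itself lay between 2.82 and 4.54 CPM in 6-week KO libraries, against 13.5 to 30.6 CPM in 6-week WT libraries. It lay between 0.425 and 6.77 CPM in 12-week KO libraries, against 7.46 to 49.2 CPM in 12-week WT libraries. All 10 microglia markers were present in every group, with a sum of 59812 to 70249 CPM in 6-week KO against 71753 to 78529 CPM in 6-week WT, and of 51359 to 54005 CPM in 12-week KO against 65105 to 72738 CPM in 12-week WT. By the edgeR test described below, 1 of these 10 markers was called lower in KO at 6 weeks and 3 at 12 weeks, and none higher. Of all genes, 0.872% and 2.98% were called in either direction. Some libraries stood apart. On the second principal component of the 500 most variable genes (9.75% of the variance) the 12-week WT libraries 3 and 8 scored 24.2 and -17.8, and the other 14 libraries lay between -9.62 and 12.2. This component went with the sex labels: the 6 libraries labelled female scored 6.39 or more, and 9 of those labelled male scored below 0. Library 3 is the only 12-week WT library labelled female, so fits without libraries 3 and 8 leave none in that group. The 12-week WT library titled 5_6 is labelled male but held both Xist (340 CPM) and 4 Y-linked genes (109 CPM in sum). The 9 other male libraries had at most 11.5 CPM of Xist and at least 258 CPM of these Y-linked genes, and the female libraries had 410 to 599 CPM of Xist. The male label of library 5_6 thus does not match its counts, and the sex term of the fits used that label. Where a fold of a member rests on 1 of these libraries, its value without that library is given beside it.

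Microglia of 12-week KO mice held far more RNA of the family than WT microglia: 4 of the 6 genes, Oas1a, Oas1g, Oas2 and Oasl2, rose past an adjusted p of 0.05. Both other genes, Oas3 and Oasl1, had no count in 12-week WT libraries, had counts in 3 of 4 KO libraries, and did not pass. The test was edgeR's quasi-likelihood test in 1 fit over the 17090 genes that passed a filter on low counts, with Benjamini-Hochberg adjustment over all of them. All 6 members passed that filter. Oas1g, Oas2, Oas3 and Oasl1 had counts in at most 2 of the 4 libraries of a WT group, so they passed it through their KO libraries. A gene that passes in this way can hardly come out lower in KO. The shares of all genes given beside the members are therefore a description and not a test of the family. In the same comparison 2.98% of genes were called, 2.03% as higher. More cells with such RNA and more RNA per cell cannot be told apart in bulk libraries.

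Oas1a had 50.6, 76.1, 46.3 and 44.0 CPM in the 12-week KO libraries, against 0, 0.380, 3.77 and 0 CPM in the 12-week WT libraries. Every KO library lay above every WT library, and 1 WT library, 5_6, held nearly all the WT counts. The KO mean of 54.2 ± 14.8 CPM was 52.3 times the WT mean of 1.04 ± 1.83 CPM (SD, n = 4), and 428 times without WT library 5_6. The edgeR log2 fold change was 5.57 ± 0.88 (SE) with an adjusted p of 0.0018.

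Oas1g, the near-copy next to it, had 10.2, 15.2, 4.06 and 8.52 CPM in KO and no count in any 12-week WT library. Its KO mean was 9.50 ± 4.60 CPM (SD, n = 4), at least 165-fold higher with a floor of 3 counts for the WT group as a whole (adjusted p = 0.0079 by edgeR). Without WT library 5_6, the deepest, the bound is at least 92.6-fold. Of the 50-base windows in Oas1a transcripts, 57.6% occur also in another Oas gene, as do 45.7% of those in Oas1g. How reads that fit both genes were counted is not given in the sources used here, so the split between Oas1a and Oas1g is uncertain. The other 4 members share no such window.

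Oas2, the longer enzyme, had 47.8, 48.0, 29.8 and 20.8 CPM in the 12-week KO libraries and no count in the 12-week WT libraries. Its KO mean of 36.6 ± 13.6 CPM (SD, n = 4) was at least 635-fold higher, or at least 357-fold without WT library 5_6 (adjusted p = 0.010 by edgeR). Oasl2 was the member with the most counts, with 119.5, 194, 77.6 and 64.8 CPM in KO against 0, 4.46, 3.16 and 4.75 CPM in WT. The KO mean of 114 ± 58.5 CPM was 36.9 times the WT mean of 3.09 ± 2.17 CPM (SD, n = 4), with a log2 fold change of 5.16 ± 0.91 (adjusted p = 0.0042 by edgeR). Neither gene's groups overlapped.

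Oas3 and Oasl1 were uneven among the KO libraries. Oas3 had 2.93, 13.3, 4.31 and 0 CPM in 12-week KO, and Oasl1 had 9.90, 44.0, 0.985 and 0 CPM. Neither gene had a count in 12-week WT. KO library 4 was thus at 0 for both genes, and KO library 2 held most of their counts. The bound on the fold was at least 89.0 for Oas3, 41.9 without KO library 2 and 50.03 without WT library 5_6 (adjusted p = 0.13 by edgeR). For Oasl1 it was at least 238, 63.0 without KO library 2 and 134 without WT library 5_6 (adjusted p = 0.056 by edgeR). Oasl1 passed by edgeR when KO library 3 (adjusted p = 0.038) or KO library 4 (0.031) was left out, with no sex term (0.043) and with no filter on low counts (1.0e-12). DESeq2 called it too (adjusted p = 0.0021). Oas3 was not called by DESeq2 (adjusted p = 0.27), and by edgeR it passed with no filter (0.00011).

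Libraries of 4 of the 6 members did not overlap between the 12-week genotypes, all higher in KO, against 5.13% of all genes tested. The unadjusted p was under 0.05 for 6 of 6 members and for 14.4% of all genes. These counts and the median below include Oas1g, Oas2, Oas3 and Oasl1, which passed the low-count filter through KO libraries. The median log2 fold change over the members was 9.66, or 6.92 with genes at 0 in WT set to their bounds, against -0.03 over all genes tested. Without the 12-week WT libraries 3 and 8 the calls were 2, Oas1a and Oasl2, and the adjusted p was 0.057 for Oas1g and 0.063 for Oas2 with 2 WT libraries left.

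**Figure D1:**
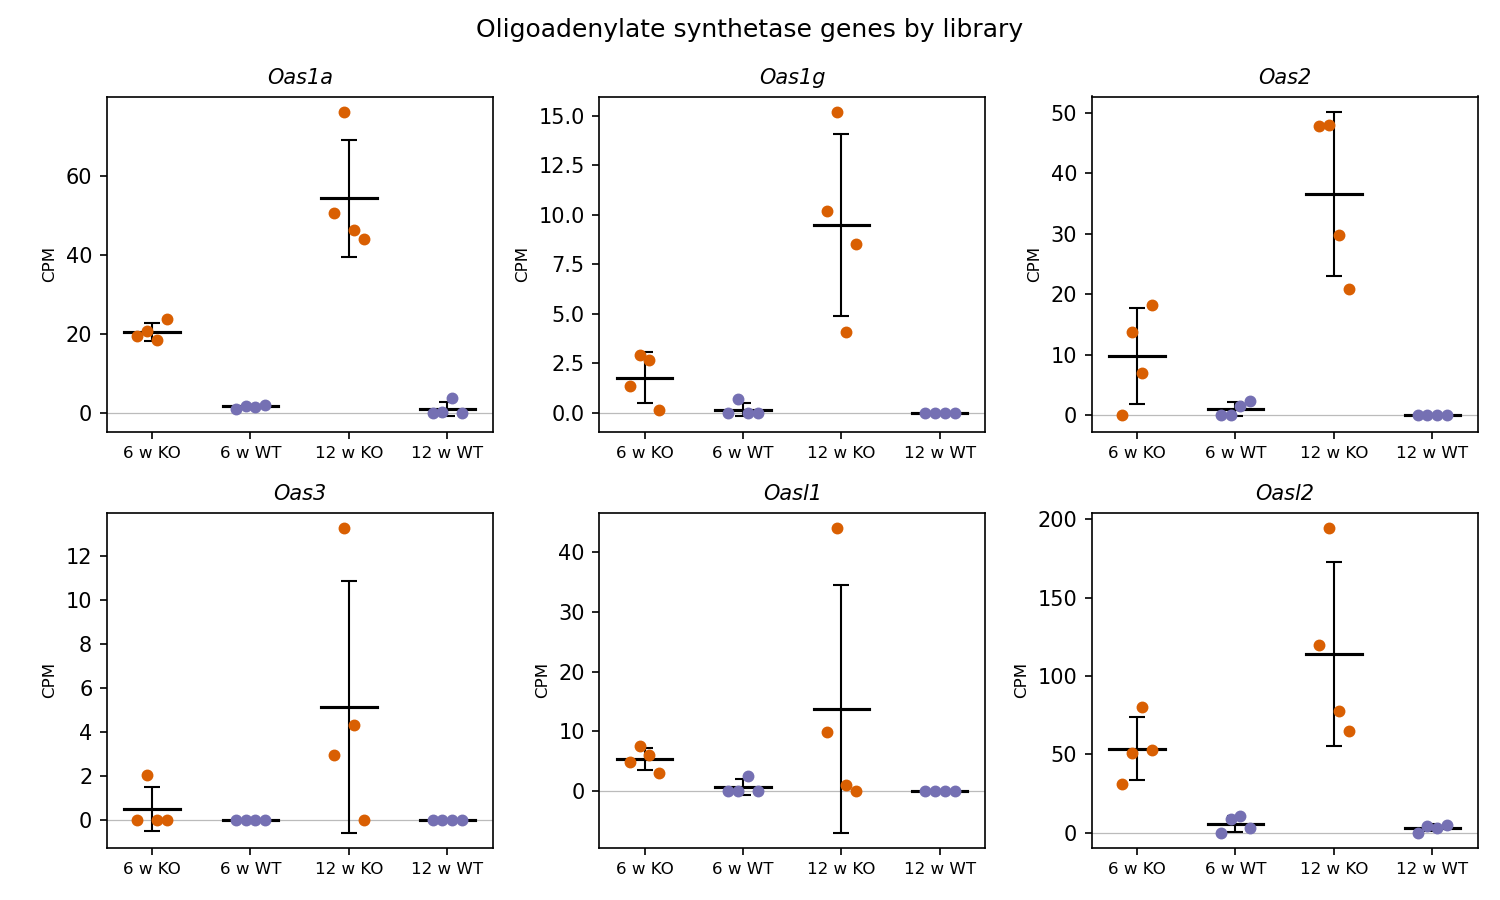
CPM of each member (y axis, a separate scale per gene) in the 16 libraries by group, KO left of WT at each age. Points are libraries, the horizontal line is the mean and the bar the SD of 4 libraries. The highest point of each panel is 12-week KO library 2, and every WT point of Oasl2 lies at or below 10.8 CPM.

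At 6 weeks the genes already differed in mean in the same direction, but none of the 6 passed the edgeR test, where 0.872% of genes were called (0.796% as higher). The unadjusted p was under 0.05 for 4 of 6 members and for 7.31% of all genes. The limit on members that passed the low-count filter through KO libraries holds here too. DESeq2, which gave an adjusted p for 5 of the members, called 2, Oas1a and Oasl2. Over all genes it called 366, against 149 by edgeR. The median log2 fold change over the 6 members was 3.41, or 3.33 with Oas3 at its bound, against -0.02 over all genes. Libraries of Oas1a, Oasl1 and Oasl2 did not overlap between genotypes, against 4.92% of all genes as higher in KO.

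Oas1a was the steadiest member. It had 19.4, 20.8, 18.4 and 23.7 CPM in the 6-week KO libraries, against 1.08, 1.94, 1.66 and 2.18 CPM in the 6-week WT libraries. The KO mean of 20.6 ± 2.29 CPM was 12.0 times the WT mean of 1.72 ± 0.476 CPM (SD, n = 4). The log2 fold change was 3.57 ± 0.82 with an adjusted p of 0.059 by edgeR. It passed in 3 of the fits that left out 1 library, those without 12-week WT library 3 (adjusted p = 0.026), 5_6 (0.00071) or 8 (0.020).

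Oasl2 had 31.0, 50.7, 80.0 and 53.0 CPM in 6-week KO against 0.108, 8.79, 10.8 and 2.91 CPM in 6-week WT. The KO mean of 53.7 ± 20.1 CPM was 9.51 times the WT mean of 5.64 ± 4.97 CPM (SD, n = 4), with a log2 fold change of 3.32 ± 0.84 (adjusted p = 0.10 by edgeR). It passed without 12-week WT library 3 (adjusted p = 0.020). Its WT libraries were uneven, yet the lowest KO library lay above the highest of them.

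The other members were lower and less even at 6 weeks. Oas2 had 0, 13.7, 7.04 and 18.2 CPM in KO against 0, 0, 1.58 and 2.43 CPM in WT, a ratio of means of 9.72, or 18.5 without WT library 4 (adjusted p = 0.52 by edgeR). Oas1g had 1.36, 2.93, 2.67 and 0.172 CPM in KO against 0, 0.685, 0 and 0 CPM in WT, a ratio of 10.4, or at least 17.9 without WT library 2 (adjusted p = 0.47 by edgeR). In both genes 1 KO library lay within the range of WT.

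Oasl1 had 4.87, 7.59, 5.97 and 3.10 CPM in 6-week KO against 0, 0, 2.61 and 0 CPM in 6-week WT, with all KO libraries above the WT libraries. Its ratio of means was 8.25, or at least 47.2 without WT library 3 (adjusted p = 0.80 by edgeR). Oas3 had counts in 1 of the 8 libraries, 6-week KO library 2 with 2.01 CPM. Its bound of at least 6.53-fold rests on that library (adjusted p = 0.83 by edgeR).

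**Figure D2:**
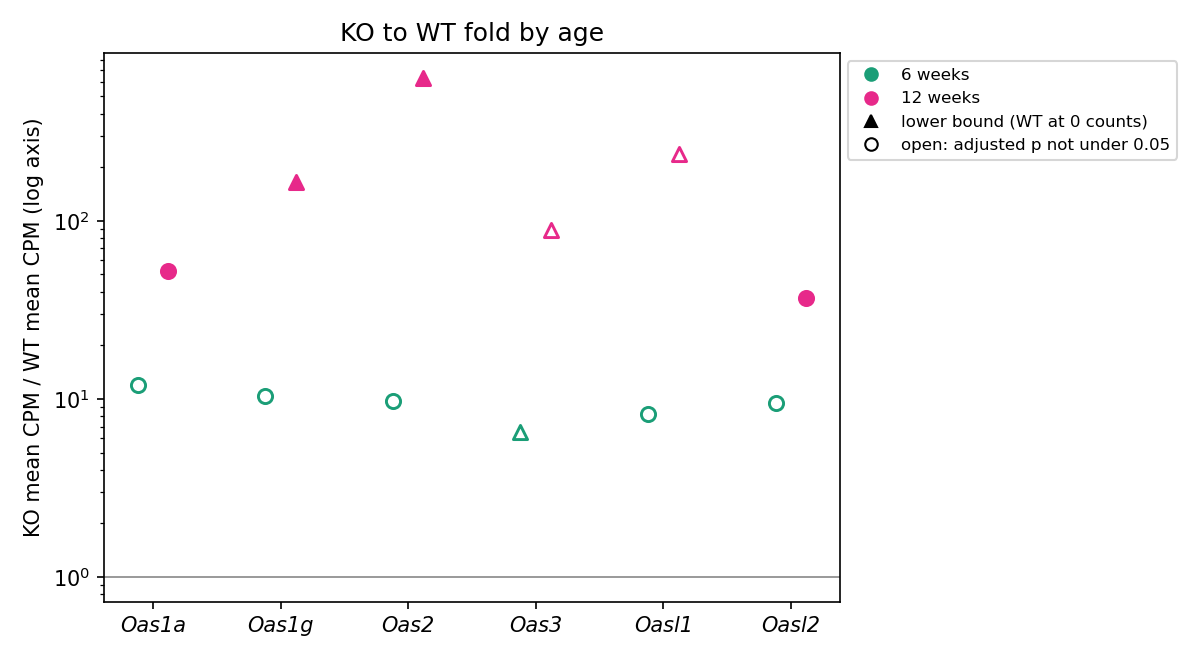
Ratio of the KO mean CPM to the WT mean CPM (log axis) for the 6 members at 6 weeks (green) and 12 weeks (pink), from 4 libraries per group. Triangles are lower bounds where WT had no count, filled symbols passed an adjusted p of 0.05, and all values lie above 1.

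The difference between the genotype effects at 12 and at 6 weeks was tested as an interaction in the same edgeR fit. None of the 6 members passed (1 of 17090 genes did, 0.00585%). Oas1g, Oas2 and Oasl1 had an unadjusted p under 0.05, as did 4.74% of all genes. These 3 had no count in 12-week WT libraries and passed the low-count filter through KO libraries, so their number is no test of the family. For Oas1a and Oasl2, which had counts in WT at both ages, the unadjusted edgeR p was 0.086 and 0.13. DESeq2 called none of the 5 members to which it gave an adjusted p. For Oas1a the difference was 2.003 ± 1.09 on the log2 scale and for Oasl2 1.84 ± 1.14 (adjusted p = 1 for each). Without 12-week WT library 5_6 the Oas1a difference was 4.99 ± 0.77 (adjusted p = 0.11), and without any other single library it lay between 1.62 and 2.28. Levels in KO at 12 weeks were not called different from those at 6 weeks for any member (4 genes, 0.0234%, were called), with 1 unadjusted p under 0.05, that of Oas1g, against 8.80% of all genes. DESeq2 called neither Oas1a nor Oasl2 here and gave no adjusted p for the other 4.

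The ratio of the 12-week KO mean to the 6-week KO mean was 2.64 for Oas1a, 5.33 for Oas1g and 3.76 for Oas2, and the log2 fold change of Oasl2 was 1.25 ± 0.81. All 12-week KO libraries lay above all 6-week KO libraries for Oas1a, Oas1g and Oas2, against 3.05% of genes, and overlapped for Oasl2. For Oasl1 the ratio was 2.55, but 0.674 without 12-week KO library 2. For Oas3 it was 10.2, 4.80 without that library, and at least 63.3 without 6-week KO library 2.

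In WT the members stayed low at both ages, and none was called (2 genes, 0.0117%, were), with 1 unadjusted p under 0.05, that of Oas2, against 7.44% of all genes. DESeq2 called none of the 5 members to which it gave an adjusted p. Oas1a averaged 1.04 ± 1.83 CPM at 12 weeks and 1.72 ± 0.476 CPM at 6 weeks, and Oasl2 3.09 ± 2.17 CPM at 12 weeks and 5.64 ± 4.97 CPM at 6 weeks (SD, n = 4). Their log2 changes of -0.73 ± 0.86 and -0.59 ± 0.97 changed sign, to 0.29 and 0.10, without 12-week WT libraries 3 and 8, which had no Oas1a count. Without library 5_6 the Oas1a change was -3.61 ± 0.68 (adjusted p = 0.22), and the ratio of its 12-week WT mean to its 6-week WT mean was 0.0738, against 0.605 with all libraries. The 12-week WT and 6-week WT libraries overlapped for every member. The order of group means was the same for 5 of the 6 genes: 12-week KO, 6-week KO, 6-week WT and 12-week WT, and Oas3 followed it with both WT groups at 0. The genotype comparisons and the age comparisons share libraries, so their values are not independent of each other.

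Per kilobase of exon, Oas1a and Oasl2 made up most of the family's RNA. Oas1a gave 45.9 ± 9.69% of the summed CPM per kilobase in 6-week KO and 47.0 ± 8.82% in 12-week KO (SD, n = 4). Oasl2 gave 27.6 to 45.9% in 6-week KO libraries and 24.3 to 28.9% in 12-week KO libraries. Oas2 gave 8.24 ± 6.82% in 6-week KO and 13.1 ± 2.97% in 12-week KO. The sum over the 6 members was 24.4 ± 4.58 CPM per kilobase in 6-week KO against 2.34 ± 1.38 in 6-week WT, and 64.9 ± 29.7 in 12-week KO against 1.04 ± 1.05 in 12-week WT. By mean raw CPM in KO the order of the leading pair is the opposite. The joined exons of all annotated transcripts span 6374 bases for Oasl2 and 1885 bases for Oas1a in the GRCm38 annotation used for lengths. The order per kilobase depends on these lengths and on the uncertain split between Oas1a and Oas1g. In 6-week KO library 3 Oasl2 led per kilobase too, with 45.9% against 35.8% for Oas1a.

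**Figure D3:**
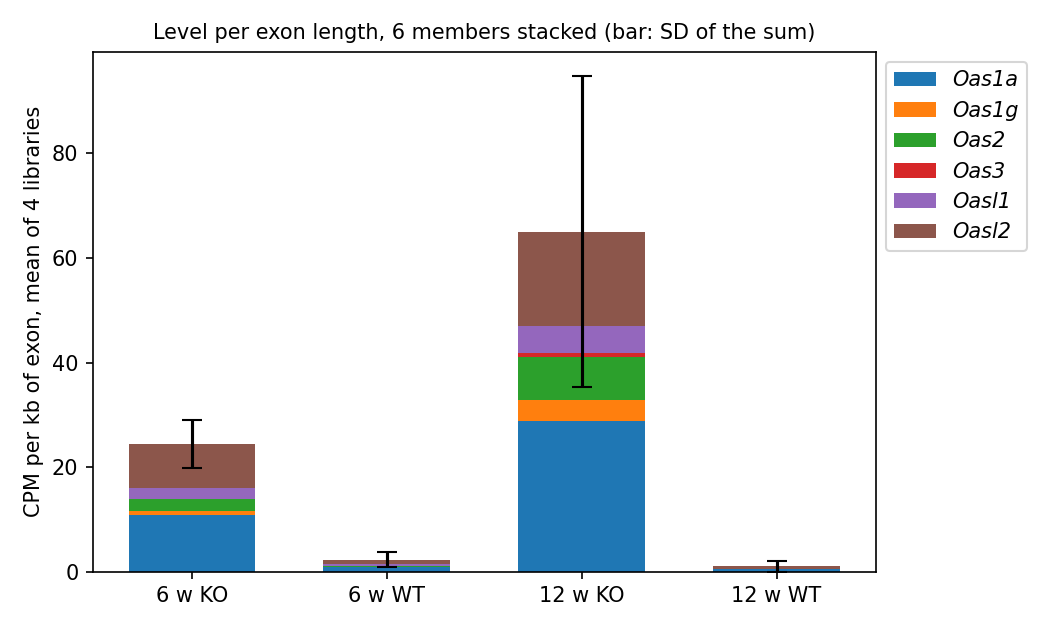
Mean CPM per kilobase of exon of the 6 members, stacked by group, KO left of WT at each age. The black bar is the SD of the sum over 4 libraries, and the sums are 24.4 in 6-week KO against 2.34 in 6-week WT, and 64.9 in 12-week KO against 1.04 in 12-week WT.

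The KO libraries did not carry the family evenly. In the 12-week KO group all 6 members were highest in library 2, where 24.4% of all tested genes with a count in that group had their highest value. The sum over the members was 391 CPM in library 2 and 138 to 241 CPM in the other 3. Library 2 also held the highest value of 6 of 8 double-stranded RNA sensors, 2 of 6 genes of the interferon receptor and ISGF3 and 5 of 7 feedback genes, but of none of the 4 genes of the 2-5A turnover list. This count was made after the values of library 2 were seen. Without library 2 the 4 members called at 12 weeks still passed the edgeR test, with adjusted p from 0.0078 for Oas1a to 0.027 for Oas2. Over the 8 KO libraries, deviations of log2 CPM from the group mean gave Pearson correlations from -0.09 (Oas1g and Oas2) to 0.77 (Oas3 and Oasl1) among the 15 pairs of members. The points share library depth, and counts of Oas3 were sparse.

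None of the 4 genes of the 2-5A turnover list, Pde12, Enpp1, Abce1 and Akap7, passed the edgeR test at either age. The unadjusted p was under 0.05 for 1 of them at 6 weeks and for 2 at 12 weeks. DESeq2 called 0 of them at 6 weeks and 1, Pde12 as lower, at 12 weeks, where it called 366 and 1158 of all genes. Pde12, which degrades 2-5A, averaged 36.7 ± 5.57 CPM in 6-week KO against 20.7 ± 8.31 CPM in 6-week WT, and 16.7 ± 7.38 CPM in 12-week KO against 40.9 ± 27.3 CPM in 12-week WT (SD, n = 4; adjusted p = 0.56 and 0.094 by edgeR). Enpp1, a phosphodiesterase that also cleaves 2-5A, averaged 27.4 ± 6.70 CPM in 6-week KO against 15.9 ± 5.55 CPM in 6-week WT, and 31.9 ± 12.6 CPM in 12-week KO against 8.93 ± 7.12 CPM in 12-week WT (adjusted p = 1.00 and 0.23). Abce1, known as a ribosome recycling factor, and Akap7, whose protein has a 2-5A phosphodiesterase domain, had log2 fold changes between -0.65 and 0.26. The other Oas symbols were at most weakly counted: of 6, only Oas1b and Oas1c passed the low-count filter, and neither was called by edgeR or DESeq2 at either age, with 1 unadjusted p under 0.05, that of Oas1c at 6 weeks. Oas1b, known for flavivirus resistance in mice, averaged 5.93 CPM in 12-week KO against 1.33 CPM in 12-week WT (adjusted p = 0.66 by edgeR), a ratio of 4.45, or 11.7 without WT library 5_6.

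Of 8 tested genes listed as sensors of double-stranded RNA, edgeR called 1 higher at 6 weeks and 2 at 12 weeks, and none lower. Zbp1, called at both ages, was near 0 in WT. It thus passed the low-count filter through KO libraries and could hardly come out lower in KO. DESeq2 called 1 of the 8 sensors at 6 weeks and 4 at 12 weeks, the additional genes being Adar and Ddx58. Over all genes it called 366 at 6 weeks and 1158 at 12 weeks. Zbp1, a sensor of Z-form nucleic acids, averaged 14.9 ± 4.11 CPM in 6-week KO against 0.143 ± 0.285 CPM in 6-week WT, and 20.0 ± 16.1 CPM in 12-week KO against 0.121 ± 0.241 CPM in 12-week WT (SD, n = 4; adjusted p = 0.017 and 0.0045 by edgeR). Dhx58, which encodes the RIG-I-like receptor LGP2, was called at 12 weeks, with a log2 fold change of 1.91 ± 0.44 (adjusted p = 0.025 by edgeR). Ddx58, which encodes RIG-I, had 1.51 ± 0.51 at 12 weeks, Adar, an RNA-editing enzyme, 1.08 ± 0.35, and Eif2ak2, the kinase PKR, 1.06 ± 0.41, none of which passed by edgeR (adjusted p = 0.15, 0.12 and 0.22). Tlr3 had log2 fold changes of -0.02 ± 0.20 at 6 weeks and -0.04 ± 0.20 at 12 weeks.

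Of 6 genes of the type I interferon receptor and ISGF3, edgeR called 0 at 6 weeks and 2 higher at 12 weeks, and none lower. At 6 weeks the unadjusted p was under 0.05 for 2 of them, and DESeq2 called 1, Irf9, which averaged 125 ± 26.9 CPM in 6-week KO against 82.9 ± 12.6 CPM in 6-week WT (SD, n = 4; adjusted p = 0.15 by edgeR). Stat2 and Irf9 rose at 12 weeks, with log2 fold changes of 1.60 ± 0.32 and 0.92 ± 0.16 (adjusted p = 0.010 and 0.0040). The receptor chains Ifnar1 and Ifnar2 had 0.53 ± 0.18 and 0.37 ± 0.17 at 12 weeks without passing by either tool. Of 5 interferon regulatory factors tested, edgeR called 1 at each age, Irf7, whose mRNA the Oasl1 protein represses in translation in mice. DESeq2 called Irf1 as well at 12 weeks (log2 fold change 0.63 ± 0.19, adjusted p = 0.11 by edgeR). Among 7 genes of interferon feedback, edgeR called Usp18 and Isg15 higher at both ages and Ube2l6 at 12 weeks. DESeq2 called Herc6 as well at 12 weeks (log2 fold change 1.11 ± 0.30, adjusted p = 0.062 by edgeR). At the threshold used, the edgeR calls in these lists stand beside 0.872% of all genes called at 6 weeks and 2.98% at 12 weeks. The DESeq2 calls stand beside more genes, 366 at 6 weeks and 1158 at 12 weeks, against 149 and 510 by edgeR.

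**Figure D4:**
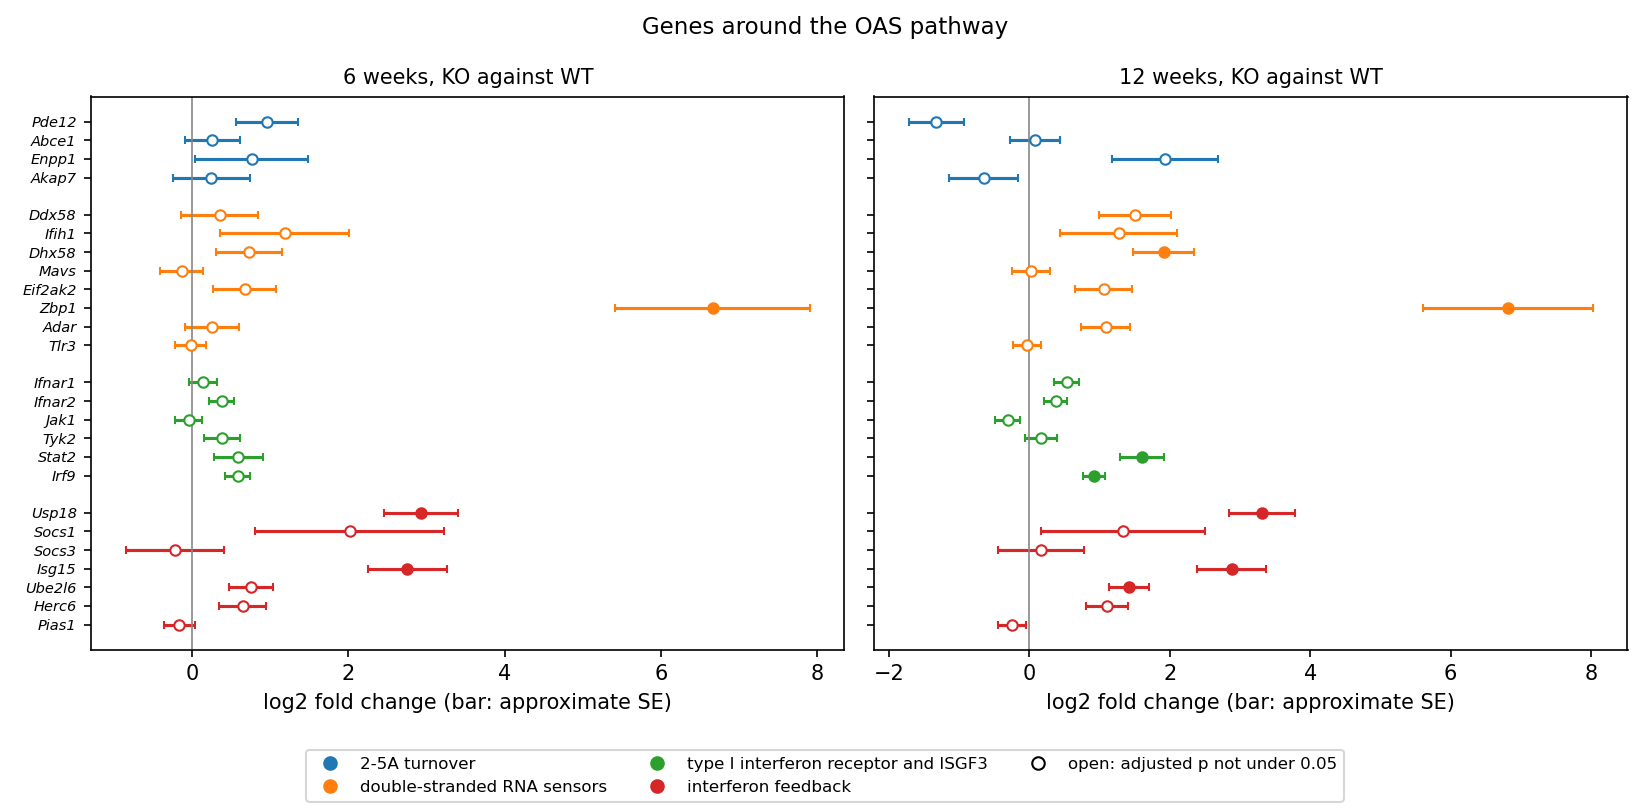
Log2 fold change of KO against WT (x axis) with its approximate SE for the tested genes of 4 lists, at 6 weeks (left) and 12 weeks (right). Filled points passed an adjusted p of 0.05, which includes Zbp1, Usp18 and Isg15 at both ages and none of the genes of 2-5A turnover.

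RNA of the interferons themselves was sparse. Over 12 type I interferon genes the files held 36 counts in the 6-week KO libraries together against 0 in 6-week WT, and 27 in 12-week KO against 3 in 12-week WT. Of these, Ifnb1, which encodes interferon beta, held 11 and 18 counts in 6-week KO libraries 1 and 2 and 27 counts in 12-week KO library 2. Ifnb1 had no count in the other 13 libraries. The 12-week KO library with Ifnb1 counts is the one in which all 6 members were highest, while 6-week KO libraries 1 and 2 had member sums of 56.6 and 97.7 CPM, against 114 and 98.2 CPM in 6-week KO libraries 3 and 4. The gene did not pass the low-count filter and was not tested in the fit.

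Monocytes, which can also carry interferon-induced RNA, were looked for by 7 markers. Their sum lay between 22.7 and 43.0 CPM in 6-week KO against 8.62 to 20.2 CPM in 6-week WT, and between 26.7 and 82.7 CPM in 12-week KO against 1.19 to 12.7 CPM in 12-week WT. The sum thus moved with the synthetases, though not every marker did, and the part of monocytes in their rise was not tested. Ly6c2, Chil3 and F10 were at 0 in all 8 KO libraries and also in 12-week WT, F10 was at 0 in 6-week WT too, and the sort kept cells negative for Ly6c. Most of the sum came from Ms4a4c, with a mean of 31.1 CPM in 12-week KO against 0.359 CPM in 12-week WT, from Ccr2, with 9.85 CPM in 12-week KO against 4.14 CPM in 12-week WT, and from Plac8, with 7.93 CPM in 12-week KO against 0.749 CPM in 12-week WT. Of these, Ms4a4c passed at 12 weeks (adjusted p = 0.0082 by edgeR). Vcan, which was not tested, had lower means in KO. It averaged 0.136 CPM in 6-week KO against 0.281 CPM in 6-week WT, and 1.08 against 1.88 CPM at 12 weeks. Chil3 and Ly6c2 averaged 3.77 and 0.0808 CPM in 6-week WT. Markers of T and NK cells summed to at most 3.74 CPM in any KO library.

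Border-associated macrophages, which line the vessels and membranes of the brain, were looked for by 9 markers. Their sum lay between 305 and 480 CPM in 6-week KO against 251 to 322 CPM in 6-week WT, and between 267 and 365 CPM in 12-week KO against 224 to 274 CPM in 12-week WT. The log2 fold change was above 0 for 8 of the 9 at each age, with a median of 1.57 at 6 weeks and 2.02 at 12 weeks. Ms4a7 was called at 12 weeks, with a mean of 22.1 CPM in 12-week KO against 1.87 CPM in 12-week WT (adjusted p = 0.036 by edgeR), and none was called at 6 weeks. Mrc1, which encodes the mannose receptor CD206, averaged 66.9 CPM in 6-week KO against 25.8 CPM in 6-week WT, and 57.1 CPM in 12-week KO against 13.5 CPM in 12-week WT (adjusted p = 0.56 and 0.093). Stab1, with the most counts of the list, had log2 fold changes of -0.31 ± 0.17 at 6 weeks and -0.58 ± 0.17 at 12 weeks. No marker was at 0 in a KO group, and Siglec1 was at 0 in 6-week WT. Most of these markers thus had higher means in KO, as the synthetases did, and their part in the rise was not tested.

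By the distance of centred log2 CPM profiles over the 16 libraries, the 8 genes most like the members' mean were Ppm1n, Troap, Ifi211, Rtp4, Sp100, Il2rg, Ccl12 and Cd69. Their root mean square distances ran from 0.893 to 1.02 on the log2 scale, against a median of 2.48 over 12383 candidate genes. The members themselves lay farther from their mean, from 1.05 for Oas1g to 1.54 for Oas2. Closeness to that mean is therefore not closeness to each member. Of the 8 named genes, Rtp4 averaged 101.7 CPM in 6-week KO against 18.1 CPM in 6-week WT, and 217 CPM in 12-week KO against 17.7 CPM in 12-week WT. Ccl12, a chemokine gene, averaged 190.0 CPM in 6-week KO against 20.5 CPM in 6-week WT, and 652 CPM in 12-week KO against 35.9 CPM in 12-week WT. With a prior count of 0.5 in place of 2, 5 of the 8 stayed among the first 8. Rtp4, Ccl12 and Cd69 did not, and ranked 16, 11 and 10. Ppm1n, Troap and Ifi211 averaged only 1.38, 2.65 and 1.83 CPM over all libraries, where candidates needed a mean of at least 1 CPM.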

How the data were processed

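For each of the 16 libraries the authors deposited a file of raw counts, 1 line for each of 53700 genes with an Ensembl identifier and a symbol. A series table they also deposited held equal values for 100% of 36935 symbols compared and entered nothing else. HTSeq 0.11.0, TopHat and cutadapt 2.10 are named in the submitters' processing notes, with the mouse build GRCm39. For reads that fit several genes, and for strand, the setting is not given in the sources used here. Per the labels' protocols, a low-input kit and a NovaSeq were used.

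The main test used edgeR 4.0.16 in R 4.3.3, with limma 3.58.1: filterByExpr with a minimum count of 10, TMM scaling and a robust quasi-likelihood fit with 4 group terms and sex as labelled, on all 16 libraries. The common dispersion was 0.421. P values are two-sided, with Benjamini-Hochberg adjustment over 17090 genes and a threshold of 0.05. SE is the absolute log2 fold change over the square root of F. It is unreliable for genes at 0 in a group, so none is printed for these. With 3 counts over a group as the floor, a group at 0 gives a lower bound. Floors cover counting error only, since reads without molecular identifiers are not independent molecules. CPM use TMM-scaled totals. Alternatives were other scalings, DESeq2 1.42.0, no filter, no sex term, both groups alone, a replicate block, and leaving out libraries.

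The members and the gene lists were chosen with earlier results of these data known. All members were named, with genes of the listed pathways. A few genes of these lists are not reported here. Of the interferon lists, the genes with the smallest adjusted p were named. Promoters are 250 bases before to 50 after each start. Exon lengths and shared windows come from a GRCm38 annotation matched by identifier. It differs from the build of the counts, so no gene position is taken from the files. Tables and figures were made with Python 3.11.15, pandas 2.3.3, numpy 2.4.6, scipy 1.17.1 and matplotlib 3.10.9.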

Additional observations from a re-analysis of the deposited data

Results flagged for a closer look

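In groups of 4 libraries, Dixon's test at a confidence of 0.95 marked 6 of 27 groups over 8 genes, where chance marks about 1 in 20 groups of continuous values. In 4 of the 6, 3 libraries were at 0 and 1 had counts. The test marks such a group however small the count, so that rate does not apply to these sparse counts. Oas1a was at 3.77 CPM in 12-week WT library 5_6 and at most 0.380 CPM in the other 12-week WT libraries. Oas1g was at 0.685 CPM in 6-week WT library 2 and at 0 in the others of that group. Oas3 was at 2.01 CPM in 6-week KO library 2 and at 0 in the others. Oasl1 was at 2.61 CPM in 6-week WT library 3 and at 0 in the others. Oas1c, an Oas1 copy outside the 6 members, was at 0.485 CPM in 6-week WT library 4, with 0 in the others, and at 4.33 CPM in 12-week WT library 8, with at most 0.475 CPM in the others.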

How the results depend on the processing

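At 6 weeks, 0 members were called in KO against WT. The count was 2 with DESeq2, 4 with no filter on low counts, 1 with no sex term, 2 with both groups compared alone, and 2 without 12-week WT libraries 3 and 8. It ranged from 0 to 2 when 1 library was left out. At 12 weeks, 4 members were called. The count was 2 without 12-week WT libraries 3 and 8, lay between 4 and 6 under the other alternatives apart from the replicate block, and ranged from 4 to 5 when 1 library was left out. With no filter, 1 member was called between 12-week and 6-week KO, 2 between 12-week and 6-week WT and 3 for the difference of effects, each 0 otherwise. Same-number correlations of deviations lay between -0.025 and 0.062. Such small values over all genes cannot decide whether replicate numbers pair the samples. With the replicate block the counts were 1 at 6 weeks and 1 at 12 weeks, in each case Oas1a, and not every library correlated best with its own number. Signs turned in 4 fits, all without a call: Oasl1 between 12-week and 6-week KO to -1.87 with the replicate block, Oas1a and Oasl2 between 12-week and 6-week WT to 0.29 and 0.10 without 12-week WT libraries 3 and 8, and Oasl2 there to 0.23 without library 3 (from -1.34 to 0.23 with any 1 library left out). The cause was not tested. Of 650 single-gene values under alternatives, 613 kept direction and side of the threshold, 28 passed it, 5 no longer passed it and 4 turned sign. Over all genes, 149 were called at 6 weeks (366 with DESeq2, 353 with no filter) and 510 at 12 weeks (1158 with DESeq2, 1073 with no filter, 204 with both groups alone, 131 with the block, 307 without WT libraries 3 and 8).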
